A study of Mus musculus with 6 samples.

Results

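The genes described here form a signalling module of myeloid cells that is built around the immunoreceptor tyrosine-based activation motif (ITAM). They were chosen by name, with earlier results of these data known. The counts below therefore describe the module and do not test it as a set. The genes are the adaptors Tyrobp and Fcer1g, the receptors Trem2, Clec4n and Clec7a, the kinases Fgr, Lyn and Syk, and the transcription factor Spi1. Of these 9 genes, 8 had a row among the 22556 genes of the tables, and Clec7a was not analysed here. RNA of the pancreas was sequenced from wild type C57BL/6 mice at post natal week 8, in 3 groups with 2 samples each. Saline mice were the controls. AP mice were given cerulein, a peptide that overstimulates acinar cells and causes acute pancreatitis (AP). PolyI:C-pretreated AP mice were given polyI:C, a synthetic double-stranded RNA that mimics viral RNA, in addition to cerulein. No sequenced group had polyI:C without cerulein, and the interval between polyI:C and cerulein in the sequenced mice was not given in the sources used here. The labels number the samples of a group without saying that each came from its own animal. A sample is called a mouse below, and p-values measure only the spread between these samples, which may be technical. The labels place all 6 libraries on the same lane.

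Receptors such as Trem2 and Clec4n carry little or no signalling sequence of their own. They pair in the membrane with the small adaptors DAP12 (encoded by Tyrobp) or FcRγ (Fcer1g). When a receptor is engaged, Src family kinases such as Lyn and Fgr phosphorylate the paired tyrosines of the adaptor, and the kinase Syk docks on them and passes the signal to calcium, NF-κB and the oxidative burst. PU.1, the product of Spi1, is the transcription factor that directs myeloid differentiation, and in the pancreas most of these genes are known from resident macrophages and from the monocytes and neutrophils that enter during pancreatitis.

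Levels are given in TPM, a length-corrected share of all transcripts with an equal sum for each sample. The spacing of low values gave library estimates of 5530067 and 4609872 reads for saline, 9743496 and 12483403 for AP, and 12413691 and 15232023 for pretreated AP, so low values are measured least precisely in the saline mice. Differences were tested with limma on log2(TPM + 0.5) over the 16814 genes averaging 1 TPM or more, and all 8 genes passed that filter. The threshold was an adjusted p (Benjamini-Hochberg, all tested genes) of 0.05 or less together with a fold of 2 or more. Adding 0.5 TPM shrinks the fold changes of genes with low values. With 2 mice on each side, exact permutation reaches a two-sided p of 0.333 at the lowest, and each adjusted p leans on variance borrowed from other genes. The 3 comparisons share mice with each other.

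All 8 genes rose in pancreatitis, and 2 of them fell past the threshold when polyI:C was given as well. In AP against saline, 8 of 8 genes rose past the threshold, where 18.3% of all tested genes rose and 4.03% fell. By voom on the estimated reads 6 rose (without Clec4n, adjusted p 0.0581, and Lyn, 0.79 on the log2 scale), and 6 with 1 prior variance (without Tyrobp, 0.0571, and Syk, 0.0516). The median log2 fold change of the 8 was 2.52, against 0.45 over all tested genes. For each of the 8, both AP mice lay above both saline mice, which was so for 52.6% of all tested genes. In polyI:C-pretreated AP against AP, both pretreated mice lay below both AP mice for 8 of 8 genes, against 22.1% of all tested genes. The median log2 fold change there was -1.68, against 0.04 over all tested genes. Past the threshold, 2 of 8 fell (Trem2 and Fgr), where 0.488% of all tested genes fell and 0.458% rose. Both reach the filter through their AP values, and with no filter their adjusted p was 0.0603 and 0.072. It was 0.0586 and 0.0653 with a pseudocount of 0.1 TPM, and 0.103 and 0.13 with 1 prior variance. With a prior following the mean log2 value it was 0.15 and 0.121. Both calls held with a pseudocount of 1 TPM (0.0364 and 0.0349) and by voom (0.0122 for each). At an unadjusted p and the same fold, 6 of 8 were lower (also Tyrobp, Fcer1g, Syk and Spi1), against 2.37% of all tested genes. Voom called the same 6, and 226 of all 16814 tested genes as lower.

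These counts depended on single mice. In AP against saline, 4 of the genes passed without AP mouse 1 and 3 without AP mouse 2. In polyI:C-pretreated AP against AP, no gene of the module passed without AP mouse 1, AP mouse 2 or either pretreated mouse, and 1 (Tyrobp) passed without either saline mouse. Over all genes, the calls of that comparison went from 159 to 0 without AP mouse 1, AP mouse 2 or pretreated mouse 2, and without pretreated mouse 1 to 69, with the lowered genes going from 82 to 6, which bears on every call named below for it. In a bulk tissue, fewer cells of a type and less RNA per cell cannot be told apart.

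**Figure D1:**
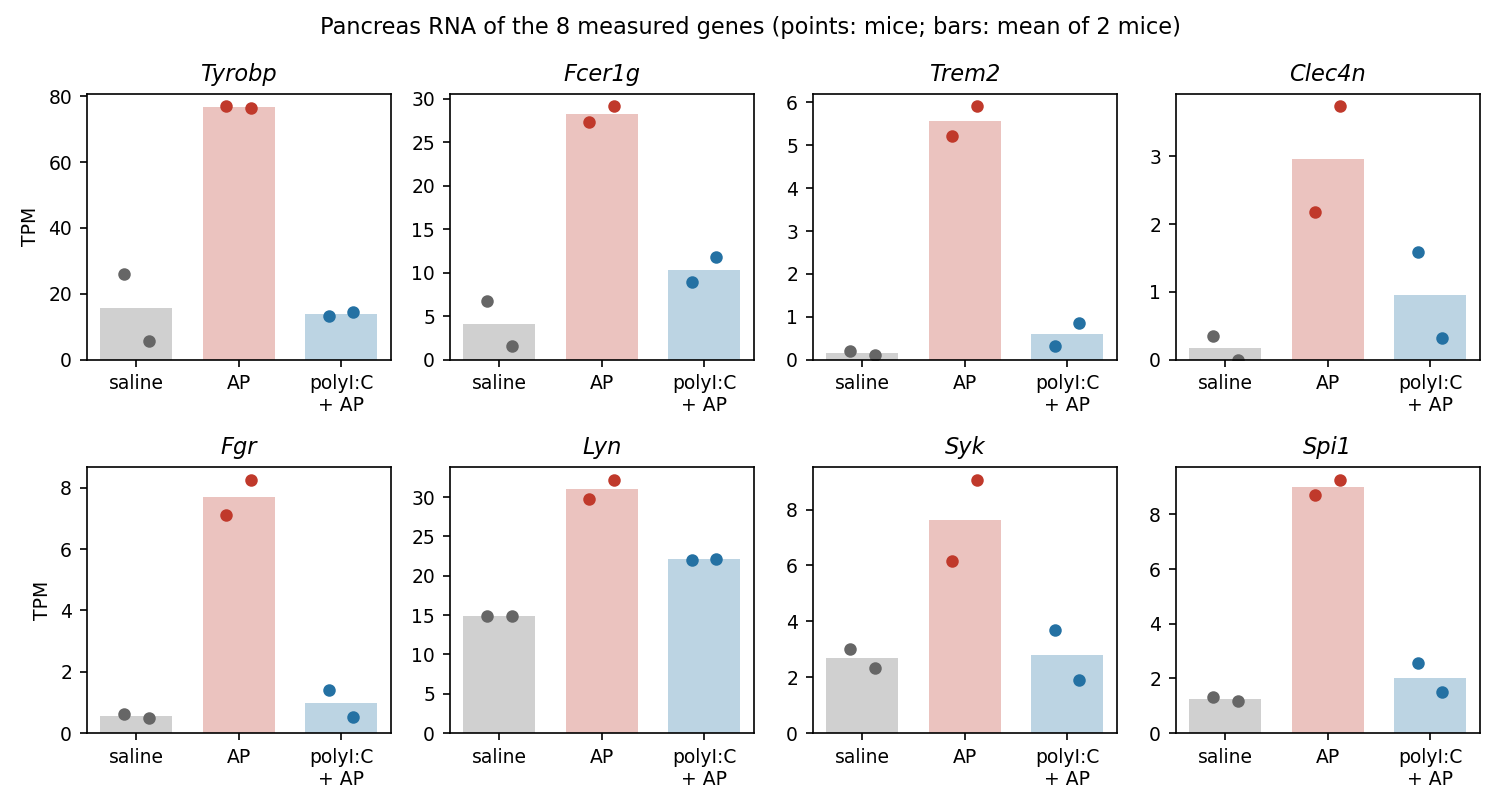
TPM of the 8 measured genes in the pancreas of each mouse, with points for the 2 mice of a group and bars for their mean; each panel has its own linear axis from 0. In every panel both AP mice lie above the other 4 mice, and the saline mice differ most in Tyrobp and Fcer1g.

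Tyrobp encodes the adaptor DAP12, the partner of Trem2 and many other activating receptors. Its levels were 26.0 and 5.64 TPM (saline), 77.0 and 76.5 TPM (AP) and 13.3 and 14.4 TPM (pretreated AP). Both AP mice were high and nearly equal, while the pretreated mice lay between the 2 saline mice. Tyrobp rose in AP against saline with a log2 fold change of 2.60 (SE 0.60, adjusted p = 0.0123), which was 3.65 without saline mouse 1 and 1.54 without saline mouse 2. The log2 fold change in pretreated AP against AP was -2.43 (SE 0.60), with an adjusted p of 0.122 in a fit whose spread is shared with the saline mice. Without saline mouse 1 or saline mouse 2 that adjusted p was 0.0164 and 0.0205, and the rise in AP lost its call without AP mouse 1 (0.124), AP mouse 2 (0.116) or pretreated mouse 1 (0.0756).

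Fcer1g encodes FcRγ, the adaptor of activating Fc receptors and of the C-type lectin Dectin-2. It stood at 6.74 and 1.55 TPM (saline), 27.3 and 29.1 TPM (AP) and 8.92 and 11.7 TPM (pretreated AP). The pretreated mice were above both saline mice and below both AP mice. The rise in AP had a log2 fold change of 2.90 (SE 0.56, adjusted p = 0.00606; 3.81 without saline mouse 1 and 1.99 without saline mouse 2), and the difference between pretreated AP and AP was -1.42 (SE 0.56, adjusted p = 0.327). Without AP mouse 1 or AP mouse 2, the adjusted p of the rise was 0.0816 and 0.0813.

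Both adaptors were higher in saline mouse 1 than in saline mouse 2, by 2.11 for Tyrobp and 1.82 for Fcer1g on the log2 scale, whereas Lyn differed by 0.00 and Spi1 by 0.13 between the same mice. Both are short genes, with 667 and 874 bases of merged exons. In saline mouse 1 and saline mouse 2, about 49 and 9 reads lay behind Tyrobp, and about 16 and 3 behind Fcer1g. Among the 510 tested protein-coding genes with under 1000 bases, the median difference between saline mouse 1 and saline mouse 2 was 0.00 (quartiles -0.39 and 0.63), and among the 12998 longer ones it was also 0.00 (quartiles -0.23 and 0.30), so short genes spread more widely between these mice. The summed level of 10 macrophage markers was 301 TPM in saline mouse 1 and 172 TPM in saline mouse 2, and that of 8 neutrophil markers was 16.6 and 5.15 TPM. Ptprc ran the other way at 3.72 and 5.07 TPM, and relative to the macrophage markers Tyrobp still stood at 0.54 and -0.85 on the log2 scale. The part of such cells, or of counting error, in the difference was not tested.

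Trem2 encodes a lipid-sensing receptor of macrophages that signals through DAP12. It was nearly absent from the saline mice at 0.195 and 0.120 TPM, stood at 5.21 and 5.91 TPM with AP, and at 0.326 and 0.865 TPM with pretreated AP. The AP mice stood clear of the other 4 mice. Trem2 rose in AP with a log2 fold change of 3.20 (SE 0.39, adjusted p = 0.000899), the largest of the module. With a pseudocount of 1 TPM (2.50) or without saline mouse 1 (3.29) it was below Fcer1g (2.72 and 3.81) and Tyrobp (2.54 and 3.65). With a pseudocount of 0.1 TPM (4.47) and by voom (4.28) it was again the largest of the module. For Trem2, about 3 reads in all lay behind the saline values and 166 behind the AP values, which gives a ratio of 25.2 with a 95% interval from 8.49 to 124 for counting error only. Trem2 fell in pretreated AP against AP by 2.51 on the log2 scale (SE 0.39, adjusted p = 0.0378). Leaving out any of the 6 mice ended that call, with an adjusted p from 0.056 without saline mouse 1 to 0.44 without AP mouse 2.

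Clec4n encodes Dectin-2, a C-type lectin that binds fungal mannans and signals through FcRγ. Its levels were 0.355 and 0 TPM (saline), 2.18 and 3.74 TPM (AP) and 1.58 and 0.314 TPM (pretreated AP). Pretreated mouse 1 came close to AP mouse 1, and pretreated mouse 2 lay among the saline mice. Clec4n rose in AP with a log2 fold change of 2.37 (SE 0.72, adjusted p = 0.0358), the least secure call of the module. It too reaches the filter through its AP values, and with no filter the adjusted p was 0.0417. It rests on about 1 read in the saline mice against 39 in the AP mice, a ratio of 17.8 with a counting interval from 3.01 to 721. The call was lost without saline mouse 1 (adjusted p 0.0513), saline mouse 2 (0.121) or AP mouse 1 (0.104), and without AP mouse 2 the gene was below the filter. Between pretreated AP and AP its log2 fold change was -1.37 (SE 0.72, adjusted p = 0.467).

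Fgr encodes a Src family kinase largely limited to myeloid cells. It measured 0.612 and 0.502 TPM (saline), 7.11 and 8.27 TPM (AP) and 1.42 and 0.542 TPM (pretreated AP). Pretreated mouse 2 was within the range of the saline mice and pretreated mouse 1 above it. About 7 reads in all lay behind the saline values and 178 behind the AP values. That is a ratio of 11.6 with a counting interval from 5.51 to 29.3. The rise in AP was 2.95 on the log2 scale (SE 0.40, adjusted p = 0.00138) and passed the threshold without any of the 6 mice. Fgr fell in pretreated AP against AP by 2.53 on the log2 scale (SE 0.40, adjusted p = 0.0402). This call, too, was lost without any 1 mouse, with an adjusted p from 0.0627 without saline mouse 1 to 0.447 without AP mouse 2.

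Lyn encodes the Src family kinase that can both start ITAM signalling and limit it by acting on inhibitory receptors. Its levels were 14.9 TPM (both saline mice), 29.8 and 32.2 TPM (AP) and 22.1 TPM (both pretreated mice). The 3 groups were ordered without overlap, and the pretreated mice stayed above the saline mice. Lyn had the smallest rise of the module, at 1.03 on the log2 scale, and the smallest error (SE 0.12, adjusted p = 0.000794). Without AP mouse 2 it was 0.98, short of the fold limit. The log2 fold change was -0.48 in pretreated AP against AP (adjusted p = 0.136) and 0.55 in pretreated AP against saline (adjusted p = 0.0113), the latter below the fold limit and dependent on scaling. Exons of Lyn overlap those of Gm26857 on the opposite strand over 248 bases, or 6.09% of the merged exons, and whether counting used strand is not stated. Gm26857 ranged from 2.01 TPM in saline mouse 2 to 16.1 TPM in AP mouse 2.

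Syk encodes the kinase that binds phosphorylated ITAMs. It was measured at 3.03 and 2.33 TPM (saline), 6.17 and 9.07 TPM (AP) and 3.69 and 1.90 TPM (pretreated AP). The pretreated mice lay on either side of the saline mice. Syk rose in AP with a log2 fold change of 1.34 (SE 0.32, adjusted p = 0.0142). This call was lost without saline mouse 2 (adjusted p 0.0882), AP mouse 1 (0.0658) or AP mouse 2 (0.146). In pretreated AP against AP the log2 fold change was -1.33 (SE 0.32, adjusted p = 0.115).

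Spi1 encodes PU.1. Its levels were 1.33 and 1.17 TPM (saline), 8.73 and 9.27 TPM (AP) and 2.55 and 1.52 TPM (pretreated AP). Both pretreated mice were above the saline mice and far below the AP mice. About 11 reads in all lay behind the saline values and 145 behind the AP values. That is a ratio of 6.01 with a counting interval from 3.26 to 12.3. Spi1 rose in AP with a log2 fold change of 2.44 (SE 0.37, adjusted p = 0.00211), also without any of the 6 mice. Its log2 fold change in pretreated AP against AP was -1.94 (SE 0.37), short of the threshold with an adjusted p of 0.0626.

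**Figure D2:**
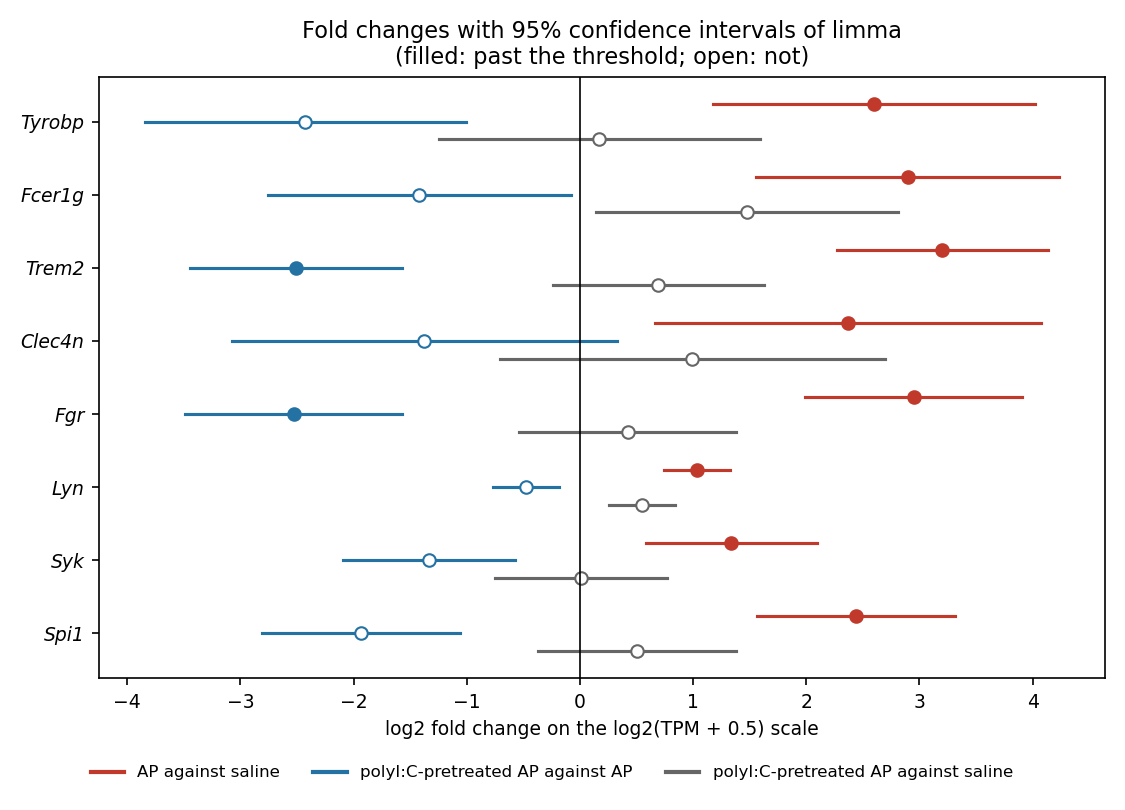
Log2 fold changes of the 8 measured genes on the log2(TPM + 0.5) scale for each comparison, with 95% confidence intervals of limma; filled points passed the threshold and open points did not. All 8 intervals for AP against saline lie above 0, from 1.03 for Lyn to 3.20 for Trem2 in their centres, and the interval of Clec4n alone crosses 0 in pretreated AP against AP.

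Between pretreated AP and saline, none of the 8 genes passed the threshold by limma, where 17% of all tested genes rose and 2.98% fell. At an unadjusted p and the same fold 1 passed, Fcer1g, with a log2 fold change of 1.48 (SE 0.56, adjusted p = 0.0771), and voom called 0. Without saline mouse 1, Tyrobp (1.23, adjusted p = 0.00898) and Fcer1g (2.39, adjusted p = 0.00504) passed. Without saline mouse 2 the direction of Tyrobp turned to -0.88 (adjusted p = 0.0209, below the fold limit) and Fcer1g was at 0.57 (adjusted p = 0.194). Over the 8 genes the median was 0.53 on the log2 scale, beside 0.48 over all tested genes.

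That common shift of all genes against the saline mice bears on how the changes are read. With median-of-ratios scaling the median of all genes moved from 0.45 to 0.06 in AP against saline and from 0.48 to 0.06 in pretreated AP against saline. Relative to the median of all genes, the 8 genes were higher in AP by 0.58 (Lyn) to 2.75 (Trem2) with TPM as deposited, and by 0.55 (Lyn) to 2.95 (Trem2) with that scaling. Under it Lyn (0.61), Syk (0.96) and Clec4n (2.19, adjusted p = 0.0596) no longer passed the threshold. In pretreated AP against saline, Tyrobp and Syk were at -0.31 and -0.48 relative to that median and Fcer1g at 0.99. Lyn was only 0.07 above it, and its log2 fold change of 0.55 against saline became 0.11 (adjusted p = 0.549) with median-of-ratios scaling and 0.28 (adjusted p = 0.241) by voom. The value of Fgr relative to the median turned sign between the scalings, from -0.06 to 0.10.

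Levels of different genes were compared per base of merged exon, as RPKM from the estimated reads, because the deposited TPM follow a gene length that counts overlapping exons repeatedly. In the AP mice Tyrobp stood highest at 32.6 ± 0.42 (SD, n = 2), followed by Fcer1g at 11.3 ± 0.40 and Lyn at 11.1 ± 0.51, which did not differ beyond their spread. Syk (2.42 ± 0.63) came next and overlapped within its spread with Spi1 (2.41 ± 0.08) and Fgr (2.05 ± 0.20), of which Fgr was the lower in both AP mice, and Clec4n (1.20 ± 0.43) and Trem2 were lowest, within the spread of Clec4n. In the pretreated mice Lyn led at 7.73 ± 0.14, ahead of Tyrobp at 5.80 ± 0.42. In the saline mice Tyrobp (8.12 ± 7.47) and Lyn (6.37 ± 0.13) could not be ordered. Lyn was among the 3 highest genes in all 3 groups, whereas Trem2 (0.05 ± 0.02 in saline and 0.16 ± 0.10 in pretreated mice) was at the low end there, within the spread of Clec4n (0.09 ± 0.12 and 0.37 ± 0.35).

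Other genes of the pathway were described from lists of names, which were also chosen with earlier results of these data known. The list of other activating receptors of myeloid cells also holds the adaptor gene Hcst. Of its 15 genes, 10 could be tested, 5 rose in AP against saline and 3 fell in pretreated AP against AP (Fcgr1, Fcgr3 and Cd300lb). The shares of all tested genes to set beside the counts of each list are 18.3% raised in AP, and 0.488% lowered in pretreated AP against AP or 2.37% at an unadjusted p. At an unadjusted p 6 were lower there, and 5 by voom. The list's median log2 fold changes were 2.20 and -1.57. Fcgr1, the high-affinity IgG receptor that pairs with FcRγ, was at 2.16 and 1.33 TPM (saline), 29.8 and 30.1 TPM (AP) and 5.90 and 5.07 TPM (pretreated AP). It fell in pretreated AP against AP by 2.35 on the log2 scale (SE 0.26, adjusted p = 0.0147) and was higher than in saline by 1.44 (adjusted p = 0.00512), a call that voom did not make. Fcgr3, a low-affinity IgG receptor with the same adaptor, rose by 2.03 and fell by 1.64 on the log2 scale. Cd300lb, which pairs with DAP12, went from 12.03 and 8.98 TPM in the AP mice to 0.545 and 1.04 TPM in the pretreated mice, below both saline mice at 1.56 and 1.20 TPM, and fell by 3.10 on the log2 scale (SE 0.38, adjusted p = 0.0171).

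Clec4d, a C-type lectin of the Dectin-2 family, is named after its values were seen. Among the tested genes of that list it had the largest log2 fold change in AP, 4.22 (SE 0.47, adjusted p = 0.000602), from 0.273 and 0 TPM in the saline mice to 10.4 and 11.8 TPM in the AP mice. The pretreated mice had 0.912 and 2.05 TPM, and the log2 fold change against AP was -2.61 (adjusted p = 0.0554). Clec4d, too, reaches the filter through its AP values. Genes of the list below the filter were not ranked, such as Clec4e with 0.0495 and 0 TPM in the saline mice and 2.40 and 1.52 TPM in the AP mice.

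Of the other Src, Syk and Tec family kinases, 10 of 12 could be tested, 4 rose in AP (against 18.3% of all tested genes) and none passed in pretreated AP against AP by limma. There, 2 were lower at an unadjusted p and 1 by voom. The median log2 fold changes were 1.05 and -0.47. Among the raised kinases, Btk (adjusted p = 0.0484), also a gene of the PU.1 list below, reaches the filter through its AP values. So do Lat2 and Cd300lf, which are counted as raised in the lists that follow. The most abundant of these kinases over all mice, Frk and Yes1, are not limited to myeloid cells and had log2 fold changes of 0.76 (adjusted p = 0.00219, below the fold limit) and 0.10 (adjusted p = 0.473) in AP. In the AP mice the mean of Src (45.4 TPM) was above that of Yes1 (39.1 TPM).

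Of the signal transducers after Syk, 19 of 20 could be tested, 9 rose in AP and none passed in pretreated AP against AP by limma, with 6 lower at an unadjusted p and 4 by voom. Their median log2 fold changes were 1.19 and -0.55. Pik3ap1, an adaptor for phosphoinositide 3-kinase and the most abundant of the list, ran against the module. It was at 208 and 176 TPM (saline), 116 and 119 TPM (AP) and 123 and 130 TPM (pretreated AP), a log2 fold change of -0.70 in AP (adjusted p = 0.00225) that is below the fold limit. Bcl10, which links Syk signalling to NF-κB, rose from 23.5 and 24.7 TPM to 84.1 and 78.4 TPM in AP (log2 fold change 1.73, adjusted p = 7.68e-05) and was 56.9 and 53.6 TPM in the pretreated mice. Card9, its partner in myeloid cells and named after its values were seen, fell in pretreated AP against saline by 1.80 on the log2 scale (SE 0.32, adjusted p = 0.00435), where 6 of the 19 transducers rose and no other fell, against 17% and 2.98% of all tested genes. Its levels were 14.3 and 9.49 TPM (saline), 9.47 and 7.98 TPM (AP) and 2.78 and 3.22 TPM (pretreated AP).

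Of the inhibitory receptors and phosphatases of the pathway, 20 of 23 could be tested, 15 rose in AP and 3 fell in pretreated AP against AP, with medians of 1.69 and -1.06. In the latter comparison 11 were lower at an unadjusted p and 9 by voom. The 3 were Dok2 (log2 fold change -2.31, adjusted p = 0.0172), an adaptor that restrains receptor signalling, Cd300a (-2.02, adjusted p = 0.0438) and Sirpa (-1.74, adjusted p = 0.0147), both receptors that recruit phosphatases. Sirpa, the receptor for CD47, was at 7.48 and 4.93 TPM (saline), 30.2 and 28.6 TPM (AP) and 8.45 and 8.46 TPM (pretreated AP). The most abundant of the list over all mice, Ptpn6 and Cblb, had log2 fold changes of 0.66 (adjusted p = 0.0407, below the fold limit) and 0.11 (adjusted p = 0.713) in AP. In the AP mice the mean of Sirpa (29.4 TPM) was above theirs (26.5 and 21.0 TPM).

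Of 12 textbook target genes of PU.1, 10 rose in AP and 6 fell in pretreated AP against AP (Csf1r, Itgam, Cd68, Cybb, Fcgr1 and Lyz2), with medians of 2.41 and -1.65. At an unadjusted p 10 were lower in the latter comparison, and 8 by voom. Lyz2, the lysozyme of myeloid cells, was at 444 and 307 TPM (saline), 1891 and 2118 TPM (AP) and 203 and 119 TPM (pretreated AP). It fell by 3.68 on the log2 scale in pretreated AP against AP (SE 0.27, adjusted p = 0.00283) and was also lower than in saline, with a log2 fold change of -1.24 (adjusted p = 0.00972). Itgam, the integrin chain CD11b, fell by 2.36 (SE 0.27, adjusted p = 0.0147). Cd14, the lipopolysaccharide co-receptor, behaved otherwise. It rose from 15.7 and 13.9 TPM in the saline mice to 218 and 222 TPM in the AP mice and stood at 216 and 209 TPM in the pretreated mice, a log2 fold change of -0.05 against AP (adjusted p = 0.892).

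**Figure D3:**
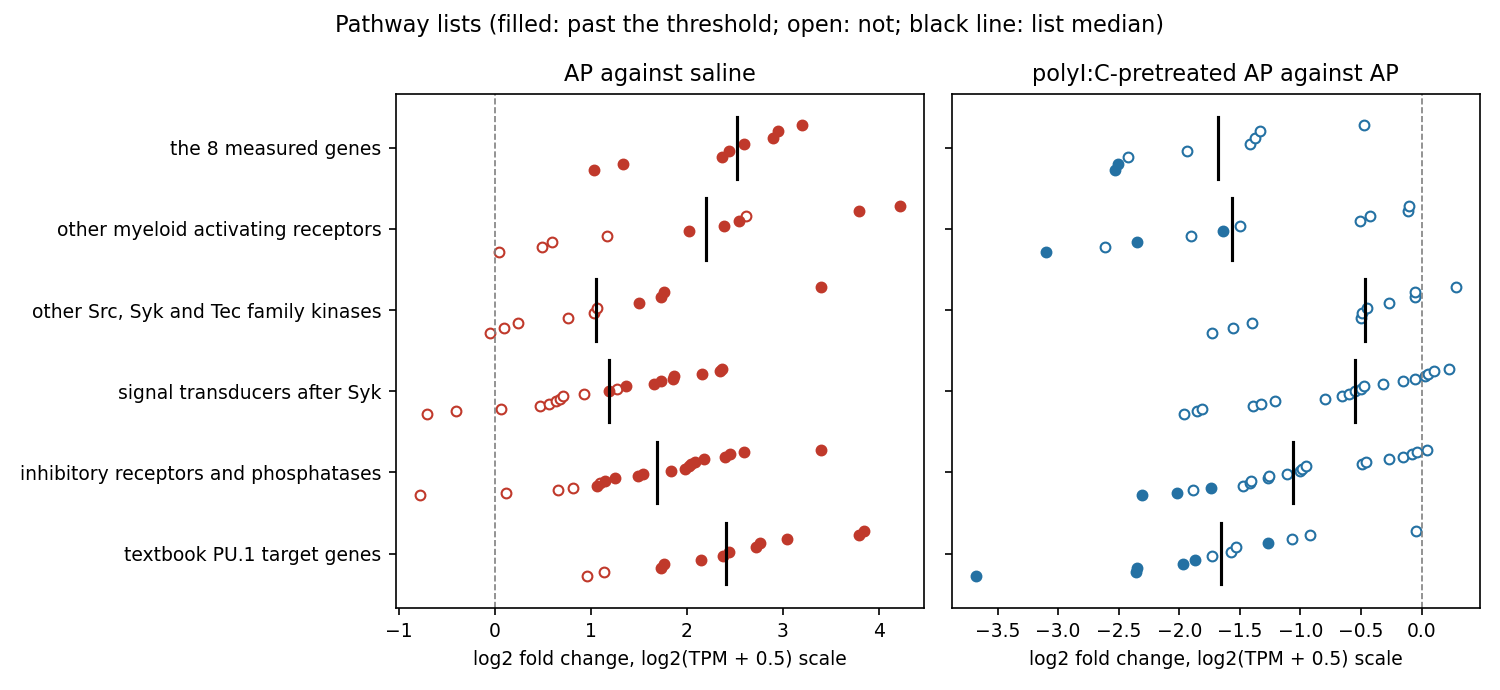
Log2 fold changes, on the log2(TPM + 0.5) scale, of the 8 measured genes and of the tested genes of 5 pathway lists, with AP against saline on the left and polyI:C-pretreated AP against AP on the right; each point is a gene, filled where it passed the threshold, and black lines are list medians. In AP the medians run from 1.05 for the other kinases to 2.52 for the 8 genes, and in pretreated AP against AP from -0.47 for the other kinases to -1.68 for the 8 genes.

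Markers of myeloid cells were counted in the same comparisons. Of 10 macrophage markers, 7 rose in AP and 4 fell in pretreated AP against AP (Cd68, Csf1r, Cd163 and Fcgr1). Cd68, Csf1r and Fcgr1 are also in the PU.1 list. Fcgr1 is in the list of activating receptors as well, so these genes are counted repeatedly. The summed levels of the 10 macrophage markers were 301 and 172 TPM (saline), 656 and 874 TPM (AP) and 410 and 360 TPM (pretreated AP). C1qb was the most abundant of them over all mice. Of 8 monocyte markers, led by Chil3 over all mice, 6 rose and 4 fell. Chil3 led through its AP mean of 315 TPM. In the saline mice F13a1 was higher (mean 39.7 against 7.85 TPM), and in the pretreated mice Plac8 (227 against 6.31 TPM). The sums were 103 and 64.6 TPM, 544 and 687 TPM, and 152 and 479 TPM in the same order, and Plac8, named after its values were seen, made up 394 TPM of the last. Of 11 neutrophil markers, led by Retnlg over all mice, 6 could be tested, 3 rose in AP, and none passed in pretreated AP against AP by limma (2 lower at an unadjusted p, 1 by voom). Retnlg led through its AP mean of 31.7 TPM. The mean of S100a9 was higher in the saline mice (3.87 against 2.51 TPM) and in the pretreated mice (14.7 against 4.51 TPM). Among the raised genes, Mmp8 reaches the filter through its AP values. The sums were 16.6 and 5.15 TPM, 71.0 and 63.1 TPM, and 45.2 and 21.4 TPM, and Ly6g, Mpo and Ngp were not analysed here. Ptprc, the marker of all leukocytes, was at 3.72 and 5.07 TPM, 8.35 and 14.4 TPM, and 4.77 and 3.40 TPM, and rose in AP by 1.24 (adjusted p = 0.0113). Its log2 fold change in pretreated AP against AP was -1.34 (adjusted p = 0.0803), past the fold limit at an unadjusted p and called by voom. The part of changed cell numbers in the results on the module was not tested.

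Markers of other cell types were described in the same way. For dendritic cell markers, led by Zbtb46, 1 of 3 tested genes rose in AP and the sums were 37.7 and 30.8, 27.2 and 31.8, and 23.9 and 21.5 TPM. By voom 1 rose and 1 fell. The raised gene by limma was Itgax (log2 fold change 1.77, adjusted p = 0.0302). Zbtb46 itself was at -0.73 (adjusted p = 0.0086, below the fold limit). Of 7 mast cell markers, led by Kit, 3 could be tested and Ms4a2 was not analysed here. Of these 3, Cpa3 fell in AP, against 4.03% of all tested genes. The mast cell sums were 29.2 and 38.8, 25.02 and 29.4, and 26.8 TPM in both pretreated mice. For B cells (4 tested, led by Cd79b) and T cells (1 tested, Cd3d), limma, an unadjusted p and voom each called 0 genes in any comparison. The B cell sum was 44.1 TPM in AP mouse 2 and 6.13 TPM in AP mouse 1, so the AP mice differed in B cell RNA, and the T cell sum stayed between 1.36 and 6.43 TPM in the 6 mice. Among NK cell markers Gzma alone could be tested, and it was listed at 0 in the saline and AP mice and at 26.9 and 47.0 TPM in the pretreated mice. The summed NK markers were 1.32 and 0.859, 1.87 and 3.49, and 30.6 and 51.0 TPM.

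Tissue markers checked the labelled organ. Of 10 acinar markers 4 were analysed here, led by Bhlha15 over all mice. Their sums were 766 and 658 TPM (saline), 320 and 274 TPM (AP) and 591 and 605 TPM (pretreated AP). Bhlha15 led through its saline mean of 359 TPM. In the AP mice the means of Nr5a2 (106 TPM) and Rbpjl (92.1 TPM) were above that of Bhlha15. In the pretreated mice the mean of Rbpjl was higher (193 against 166 TPM). Of the 4 acinar markers, 2 (Bhlha15 and Rbpjl) fell in AP and rose in pretreated AP against AP. Of all tested genes, 4.03% fell in the former comparison and 0.458% rose in the latter. Ptf1a and Nr5a2 had log2 fold changes of 0.20 and 0.16 in AP. Duct and islet markers, led by Krt19 over all mice, had sums of 1167 and 932, 2056 and 2022, and 1218 and 1524 TPM. By limma 3 of 8 rose in AP and by voom 1, against 18.3% of all tested genes by limma. Krt19 went from 51.2 and 62.4 TPM in the saline mice to 1016 and 1041 TPM in the AP mice. Ins1 was higher than Krt19 in the saline mice, at 648 and 449 TPM. In AP the log2 fold changes of Ins1 and Ins2 were 0.11 and -0.38 (adjusted p = 0.762 and 0.39). As TPM are shares of a total, the 15 genes above 1% each bear on every other value, and they held 30.4 and 27.6% of the TPM (saline), 19.0 and 16.7% (AP) and 16.3 and 15.4% (pretreated AP). The effect of this on the module was not tested beyond the scaling above.

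Set against Ptprc in the same mouse, the genes parted. These are differences of log2(TPM + 0.5) with no test. Syk had mean differences from Ptprc of -0.62 in saline (-0.26 and -0.98 in the single mice), -0.52 in AP (-0.41 and -0.64) and -0.52 in pretreated AP mice (-0.33 and -0.70). Lyn stood at 1.67, 1.45 and 2.32 and was thus highest relative to Ptprc in the pretreated mice. Tyrobp went from 1.40 in saline to 2.75 in AP and 1.66 in pretreated mice, with the pretreated mice (1.39 and 1.94) below the AP mice (3.13 and 2.37) and the saline mice far apart (2.65 and 0.14). Trem2 went from -2.88 to -0.93 and -2.09, Fgr from -2.20 to -0.49 and -1.68, and Spi1 from -1.47 to -0.28 and -0.87, each without overlap between AP and pretreated mice. Fcer1g (-0.33, 1.32 and 1.24) and Clec4n (-2.89, -1.77 and -1.80) kept in the pretreated mice the mean difference from Ptprc that they had in the AP mice, with overlap. Relative to the mean of the macrophage markers, Syk stood at -2.17 in saline, -2.53 in AP and -2.60 in pretreated AP mice. Lyn stood there at 0.12, -0.55 and 0.24. Tyrobp, Trem2, Fgr and Spi1 were again lower in the pretreated than in the AP mice without overlap, and the other genes were not.

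The genes whose pattern over the 6 mice was most like the mean of the module were found by the root mean square difference of centred log2 values among 9396 genes averaging 10 TPM or more. They were Fcgr3 (0.149), Sirpa (0.152), Cfp (0.175), Emilin2 (0.206), Pld4 (0.211), Itgb2 (0.243), Basp1 (0.256) and Cyth4 (0.267). Fcgr3 and Sirpa are themselves receptors of the activating and inhibitory lists. Within the module Spi1 was closest to the mean pattern (0.200) and Lyn farthest from it (0.649).

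The ITAMs of the 2 adaptors are shown because they are the sequence on which the module turns. In the coding sequences of the principal transcripts of each gene (GENCODE M21, GRCm38), a script looked for a tyrosine codon with a leucine or isoleucine codon 3 codons later, then 6 to 12 codons, then the same pair again. Tyrobp and Fcer1g had 1 match each and Trem2, Clec4n, Fgr, Lyn, Syk and Spi1 had 0, while 6.41% of 21951 protein-coding genes had a match, so the pattern alone does not mark an ITAM. Both matches span 15 codons with 7 between the pairs, from codon 92 to 106 of 114 in Tyrobp and from codon 65 to 79 of 86 in Fcer1g, close to the end of the protein. Each lies across 2 coding exons, at chr7:30415670-30417382 on the + strand for Tyrobp and at chr1:171229889-171230072 on the - strand for Fcer1g, and is written without the intron. Capitals mark the codons of the paired tyrosines and of the leucines after them.
Tyrobp: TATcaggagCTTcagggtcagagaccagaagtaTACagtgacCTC
Fcer1g: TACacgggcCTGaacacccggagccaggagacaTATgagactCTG

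RefSeq promoter windows (GRCm38.p6) were matched by symbol for 4 of the 8 genes, Fcer1g, Trem2, Fgr and Syk. The 250 bases before the start of transcription were searched on both strands for GAGGAA, the core letters of PU.1 sites. Trem2 held it in its window, Syk in 1 of 2 windows, and Fcer1g and Fgr in none, against 23.3% of 32851 windows of the same length. A match is a description of letters and not of binding. The windows of Trem2 (chr17:48346151-48346400, + strand) and Fgr (chr4:132973845-132974094, + strand), the genes that fell past the threshold with polyI:C, are printed with the match in capitals.
Trem2: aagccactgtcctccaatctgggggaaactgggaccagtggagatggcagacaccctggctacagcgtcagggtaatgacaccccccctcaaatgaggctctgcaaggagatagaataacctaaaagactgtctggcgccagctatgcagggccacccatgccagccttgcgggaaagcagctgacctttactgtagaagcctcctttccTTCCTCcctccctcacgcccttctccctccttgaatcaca
Fgr: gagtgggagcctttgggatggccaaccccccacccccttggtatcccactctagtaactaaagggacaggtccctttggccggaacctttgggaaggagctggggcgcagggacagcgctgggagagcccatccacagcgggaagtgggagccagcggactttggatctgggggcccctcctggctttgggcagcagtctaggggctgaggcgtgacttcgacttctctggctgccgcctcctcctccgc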

How the data were processed

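The authors deposited TPM values per gene for each sample. Before that, the authors used Trimmomatic for trimming, STAR for alignment to mm10, htseq-count for counting and DESeq2, with no versions given. The step from counts to TPM is not described. The labels name both a ribosomal RNA depletion kit and an mRNA kit. Identifiers of 22490 of 22556 genes matched GENCODE M21. TPM were used as deposited.

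Reads per library were estimated from the spacing of low TPM values times gene length. With the summed length of all distinct annotated exons, between 69.0% and 78.3% of values up to 20 reads fell within 0.1 of a whole read, against 50.9% to 62.4% with merged exons and about 20% (19.6% to 20.6%) with shuffled lengths, so the summed length was used. It moves levels compared between genes and leaves fold changes as they are.

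Here limma 3.58.1 in R 4.3.3 fitted 1 coefficient per group to log2(TPM + 0.5) of all 6 samples, with a prior variance that follows log2(mean TPM × exon length + 1). The fit was tested on simulated data. Tables were made with Python 3.11.15 and pandas 2.3.3. Alternatives were other pseudocounts, filters, scaling, priors and call rules, voom, the replicate number as a block, the compared groups alone, each sample left out in turn and, chosen after seeing the data, merged exon length in the prior. The members and lists were chosen with earlier results of these data known. Named genes are the members, the 2 most abundant genes of each pathway list and the 2 largest calls of pretreated AP against AP in it, the most abundant gene of each marker list and the 8 genes of most like pattern. Abundance here is the mean TPM over all 6 samples, and its order can differ between groups. All other named genes, also those listed beside small counts, were chosen after their values were seen.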

Additional observations from a re-analysis of the deposited data

How the results depend on the processing

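Over 435 alternative values of single genes of the module, 375 kept their side of the threshold, 43 lost it, 17 gained it and none reversed a call. In AP against saline, the main count of 8 genes was 3 with a mean of at least 5 TPM, since 3 were then tested, 5 with median-of-ratios scaling, and 3 to 8 with a sample left out. In pretreated AP against AP, the 2 calls became 0 with a pseudocount of 0.1 TPM, no filter, a mean of at least 5 TPM (which leaves out both genes), a prior following the mean log2 value, 1 prior variance or the replicate block, 6 by voom or an unadjusted p, 5 with the compared groups alone and 0 to 1 with a sample left out; apart from that filter, the cause was not tested. In pretreated AP against saline, the count of 0 was 1 without a fold limit (Lyn) or at an unadjusted p (Fcer1g) and 0 to 2 with a sample left out. Over all genes, the 3752, 159 and 3356 calls became 6918, 236 and 6704 without a fold limit. The 159 became 94 with no filter, 28 and 41 with the other priors, 346 by voom, 725 at an unadjusted p, 264 with the compared groups alone and 0 to 166 with a sample left out. Median-of-ratios scaling moved the split of raised and lowered genes in AP against saline from 3074 and 678 to 1581 and 1213, and in pretreated AP against saline from 2855 and 501 to 1335 and 977. Voom gave 1845 and 1004, and 1534 and 836. With the replicate block, all genes called were 3692, 156 and 3307, and the samples share only a number, since deviations of samples with the same number had r of 0.0075, -0.0039 and 0.035 across genes. With merged exon length in the prior, chosen after seeing the data, 7, 2 and 0 genes of the module were called. Where a sample is left out, the lone sample of its group is assumed to vary like the others. Members near 1 read in the saline mice are limited by depth.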
